A study of Mus musculus with 6 samples.

Results

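The enzymes that make serine and that pass its carbon unit to folate were described in stimulated mouse CD4+ T cells. They comprise 10 of the 35602 genes in the count table, taken by name from a list that was drawn up with earlier results of these data known. Serine synthesis is represented by *Phgdh*, *Psat1* and *Psph*, the cytosolic folate enzymes by *Shmt1* and *Mthfd1*, and the mitochondrial folate enzymes by *Shmt2*, *Mthfd2*, *Mthfd1l*, *Mthfd2l* and *Aldh1l2*. Serine is built from a glycolytic intermediate, and the serine hydroxymethyltransferases then split it into glycine and a carbon unit bound to tetrahydrofolate. The unit is oxidised in mitochondria and leaves them mainly as formate, which the cytosolic enzymes bind to folate again for the synthesis of purines, thymidylate and methionine. T cells that enter division after stimulation are known to raise this pathway, in particular its mitochondrial branch.

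CD4+ T cells from mouse spleen were stimulated with anti-CD3/CD28 antibodies and exposed to MAPK13-IN-1, an inhibitor of the p38 family kinase encoded by *Mapk13*, or to the solvent DMSO. RNA was sequenced from 3 libraries per group after 72 h of stimulation, to ask which transcripts differ when the kinase is inhibited. For replicates 2 and 3 the labels give the genotype WT, 17.1 µM inhibitor or 0.1 µl DMSO, and addition of the inhibitor after day 1, whereas the design text places the stimulation in its presence. The labels of the replicate 1 pair give the treatment but no dose, day or genotype, and all 6 libraries share the stimulation. Replicates 2 and 3 were made from mRNA bound to poly-T beads and were deposited as counts, with totals of 26874805 and 28487403 in the DMSO libraries and 33854760 and 32617702 in the inhibitor libraries. Values from them are CPM, counts relative to library size with sizes adjusted by TMM, and a count of 3, the limit that a count of 0 allows, was worth 0.0886 to 0.112 CPM before TMM scaling. This limit covers counting error only. Replicate 1 was made with a stranded kit and deposited as normalized values without a named unit, read here as FPKM, fragments relative to gene length and library size. Its depth is unknown and it has 1 library per group, so it carries no test. No test joined the batches, and only the search for genes of like pattern used both, with each gene centred within its batch. Nothing in the labels says that replicates came from separate cultures or animals, so p-values measure the spread between these libraries, which may be technical.

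Markers of CD4 T cells were present in all libraries. *Cd4* itself was at 275 and 276 CPM in the DMSO libraries and at 267 and 283 CPM in the inhibitor libraries, groups that overlapped. The 8 CD4 T cell markers, led by *Cd5* with DMSO and by *Cd4* with the inhibitor, summed to 1696 and 1718 CPM (by library totals, as all marker sums here) with DMSO and to 992 and 1110 CPM with the inhibitor. Of these 8, 7 fell (32.3% of all genes did) and 0 rose (31.5% of all genes did). B cell markers were abundant as well, although CD4+ T cells had been isolated. The 9 of 10 listed B cell markers with counts here, led by *Pax5* with the inhibitor, summed to 1049 and 1022 CPM with DMSO. With the inhibitor they summed to 1287 and 1304 CPM. Of these 9, 2 were lower and 6 higher, against the same shares of all genes (32.3% and 31.5%). In the replicate 1 pair the CD4 T cell markers summed to 1265 and 1127 FPKM and the B cell markers to 51.6 and 35.6 FPKM with DMSO and inhibitor, respectively. Plasmablast markers, 4 genes led by *Mzb1*, summed to 149 and 134 CPM with DMSO and to 215 and 226 CPM with the inhibitor.

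Other cell types had lower sums. The 6 macrophage markers, led by *Cd68*, were at 13.1 and 11.4 CPM with DMSO and at 43.8 and 36.3 CPM with the inhibitor. Of these 6, 5 were higher, against 31.5% of all genes. The 6 erythroid markers, led by *Hbb-bs* with the inhibitor, were at 6.14 and 6.14 CPM and at 76.9 and 55.5 CPM. Of the 5 tested, 4 were higher, against the same 31.5% of all genes. The 4 stromal and endothelial markers, nearly all from *Pecam1* and with *Col3a1* at 0 counts, were at 39.7 and 37.0 CPM and at 81.6 and 75.8 CPM. The 4 dendritic cell markers, led by *Flt3*, were at 2.75 and 2.98 CPM and at 11.05 and 10.1 CPM. The CD8 markers *Cd8a* and *Cd8b1*, the latter leading, were at 11.2 and 10.4 CPM and at 5.76 and 8.16 CPM. The 3 NK cell markers, led by *Klrb1c*, reached at most 0.443 CPM, with *Klra8* at 0 counts in all 4 libraries. The 4 neutrophil markers, led by *Ly6g* in 3 of the 4 libraries, reached at most 0.307 CPM, with *S100a9* at 0 counts in all 4 libraries. The NK cell and neutrophil sums overlapped between the groups. The other sums did not overlap, and their part in the results below was not tested. In replicate 1 the sums, from DMSO to inhibitor, were 22.5 to 16.3 FPKM for plasmablast markers, 7.85 to 6.32 FPKM for stromal and endothelial markers and 3.49 to 8.39 FPKM for CD8 markers, each opposite to the count table. Those of macrophages (2.93 to 9.10 FPKM), dendritic cells (1.14 to 4.47 FPKM) and erythroid cells (0.903 to 1.72 FPKM) were higher in both batches. Within the replicate 1 plasmablast sum, *Mzb1* was lower with the inhibitor (21.8 to 10.0 FPKM). *Jchain* (0.302 to 1.82 FPKM) and *Sdc1* (0.457 to 4.46 FPKM) were higher there, as in the count table. In bulk RNA, fewer cells of a type and less RNA per cell cannot be told apart.

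Most of the enzyme transcripts were lower with the inhibitor. All 10 genes passed the filter on low counts. By the quasi-likelihood test of edgeR, adjusted over all genes by Benjamini-Hochberg, 9 of the 10 passed an adjusted p of 0.05, against 63.8% of all 16269 genes tested. Of the 10, 7 fell (32.3% of all genes) and 2 rose (31.5% of all genes). At least 2-fold falls were found for 6 of the 10, against 10.4% of all genes. *Phgdh* was close to that limit (−1.04) and just under it with upper-quartile scaling (−0.96), library totals (−0.92) and at least 10 counts in every library (−0.999), which leaves 5. The inhibitor libraries were both below both DMSO libraries for 8 of the 10 (41.4% of all genes) and both above for 2 (41.7%), so that 0 overlapped. The median log2 fold change of the 10 genes was −1.14, against 0.01 for all genes tested. In the replicate 1 pair 9 of the 10 were lower and 1 was higher. Of the 15825 genes tested in the count table and listed in that pair, 6223 were lower and 9520 higher. The median difference of the 10 genes was −1.42 on the log2(FPKM + 1) scale, against 0.07 for all genes tested in the count table. There, 7 of the 10 were lower by at least 2-fold on that scale and 0 were higher by as much, against 1.94% and 6.83% of the 11071 genes with a mean of at least 1 FPKM. The choice of scaling bears on these values, since scaling by library totals in place of TMM moved the median of all genes by 0.13, from 0.01 to 0.14.

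**Figure D1:**
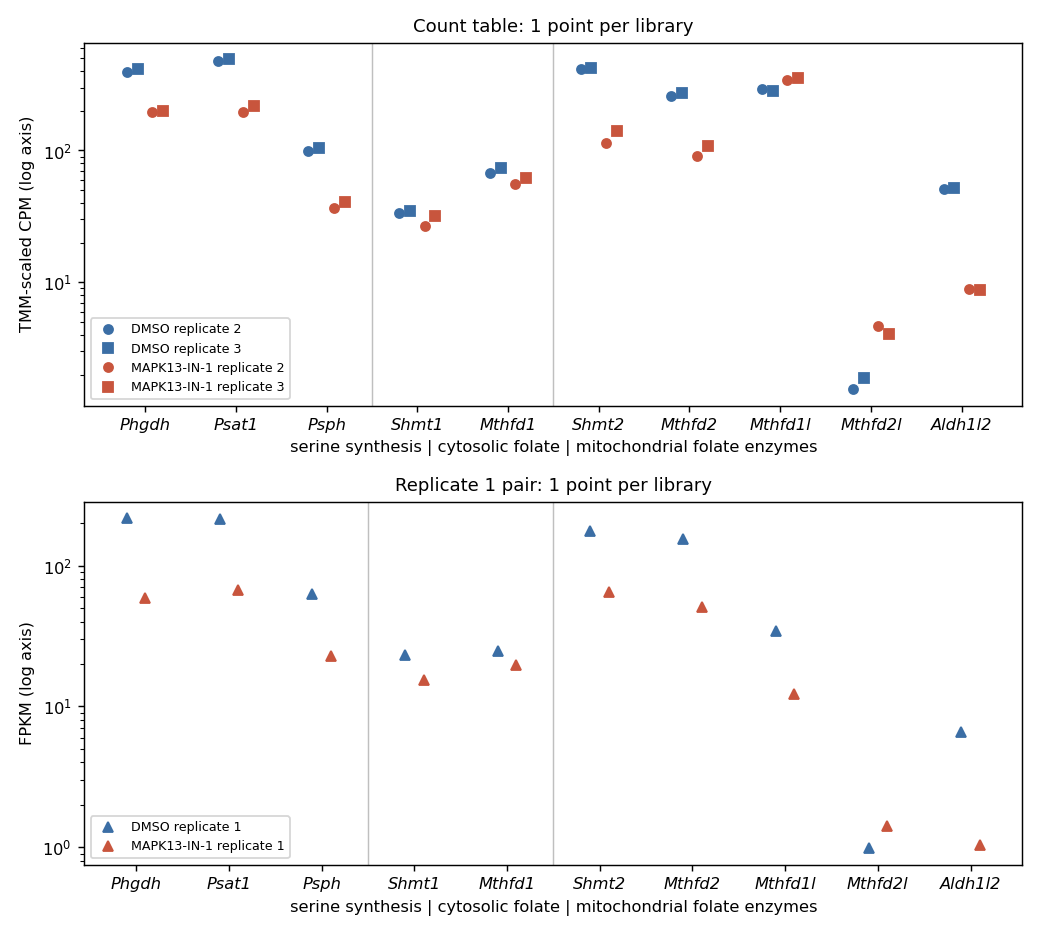
Level of each enzyme transcript in each library, as TMM-scaled CPM for replicates 2 and 3 (upper panel) and as FPKM for replicate 1 (lower panel), both on log axes with 1 point per library. In the upper panel both inhibitor libraries lie below both DMSO libraries for 8 genes and above them for *Mthfd1l* and *Mthfd2l*, whereas in the lower panel *Mthfd1l* is lower with the inhibitor.

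The transcripts of serine synthesis all fell in the count table and were all lower in the replicate 1 pair. *Phgdh* encodes the dehydrogenase that diverts the glycolytic intermediate into serine synthesis (GRCm38 chr3:98313170-98339990, minus strand). It was at 396 and 416 CPM in the DMSO libraries and at 196 and 198 CPM in the inhibitor libraries. Both inhibitor libraries were low, close to each other and clear of the DMSO libraries. The log2 fold change was −1.04 (SE 0.0538, edgeR quasi-likelihood test, Benjamini-Hochberg adjusted p = 1.6e-07). Replicate 1 was listed at 216 FPKM (DMSO) and 59.2 FPKM (inhibitor). GENCODE annotates 21 other genes that share at least 90% of their bases with *Phgdh* transcripts over at least 100 bases, mostly processed pseudogenes, and 7 of them share at least 95% over at least 1000 bases. How reads were divided among such copies is not given in the sources used here, so the level of *Phgdh* is uncertain.

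*Psat1* encodes the aminotransferase of the next step (chr19:15904678-15947337, minus strand). Its values were 473 and 492 CPM with DMSO and 196 and 217 CPM with the inhibitor. The groups lay far apart relative to the spread within them, with a log2 fold change of −1.23 (SE 0.0612, edgeR test with Benjamini-Hochberg adjusted p = 1.31e-07). In replicate 1 it went from 214 FPKM (DMSO) to 67.4 FPKM (inhibitor). A processed pseudogene shares 91.0% of the bases with *Psat1* over 1056 bases. *Psph* encodes the phosphatase that releases free serine (chr5:129765558-129787449, minus strand). It was counted at 99.6 and 105 CPM with DMSO and at 36.6 and 40.6 CPM with the inhibitor. Again both inhibitor libraries were the low ones, and the log2 fold change was −1.40 (SE 0.0747, edgeR test with Benjamini-Hochberg adjusted p = 1.85e-07). The replicate 1 values were 62.7 FPKM (DMSO) and 22.8 FPKM (inhibitor). *Psph* shares 452 exonic bases with *Cct6a* on the opposite strand, which had 7231 and 8086 counts with DMSO and 6162 and 5881 counts with the inhibitor. Whether strand was used in counting is not given in the sources used here, so reads from these bases cannot be told apart. The differences among the 3 genes in the size of the fall were not tested.

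The serine hydroxymethyltransferases make glycine and load the carbon unit onto folate in either compartment. *Shmt2*, the mitochondrial form (chr10:127517123-127522444, minus strand), was at 415 and 423 CPM with DMSO and at 114 and 142 CPM with the inhibitor. The DMSO libraries were high and nearly equal, and the inhibitor libraries were low with a wider spread. It fell with a log2 fold change of −1.71 (SE 0.0873, edgeR test with Benjamini-Hochberg adjusted p = 1.51e-07). The replicate 1 libraries stood at 175 FPKM (DMSO) and 64.9 FPKM (inhibitor). *Shmt1*, the cytosolic form (chr11:60788104-60811718, minus strand), was at 33.3 and 34.8 CPM with DMSO and at 26.7 and 32.1 CPM with the inhibitor. The inhibitor libraries were below the DMSO libraries, 1 of them by little, and the log2 fold change of −0.21 (SE 0.101) did not pass (edgeR test, Benjamini-Hochberg adjusted p = 0.0919). It was −0.08 without inhibitor replicate 2 and −0.09 with library totals, and did not pass in either case. Without inhibitor replicate 3 it was −0.35 and passed (edgeR, Benjamini-Hochberg adjusted p = 0.000283), the spread in both fits without an inhibitor library coming from the DMSO libraries alone. With the replicate number as a block it also passed (edgeR, adjusted p = 0.0479), within a range of 0.000283 to 0.470 over all alternatives. *Shmt1* was listed at 23.0 FPKM (DMSO) and 15.5 FPKM (inhibitor) in replicate 1. *Shmt1* shares 184 exonic bases with *Smcr8* on the opposite strand (3454 and 3461 counts with DMSO, 4079 and 3839 with the inhibitor), and *Shmt2* shares 32 with *Ndufa4l2*, which had at most 16 counts in a library. A processed pseudogene shares 90.1% of the bases with *Shmt2* over 233 bases.

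Within a library the ratio of the mitochondrial to the cytosolic transcript does not depend on the scaling. Counts of *Shmt2* over *Shmt1* stood at 12.5 and 12.2 in the DMSO libraries and at 4.27 and 4.41 in the inhibitor libraries. The ratio was thus lower in both inhibitor libraries, by a log2 difference of −1.51 between group means, with SDs of 0.03 in each group. No test was made of any ratio, and an exact permutation test over 2 against 2 libraries cannot give a p under 0.333. In FPKM the ratio was 7.63 with DMSO and 4.19 with the inhibitor in the replicate 1 pair, a log2 difference of −0.87.

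The next enzymes interconvert the folate-bound unit and formate. *Mthfd2*, the mitochondrial dehydrogenase and cyclohydrolase of dividing cells (chr6:83305691-83325908, minus strand), was at 258 and 274 CPM with DMSO and at 90.9 and 107 CPM with the inhibitor. The groups did not overlap, and it fell with a log2 fold change of −1.43 (SE 0.0787, edgeR test with Benjamini-Hochberg adjusted p = 2.26e-07). Replicate 1 showed 154 FPKM (DMSO) against 50.9 FPKM (inhibitor). *Mthfd1*, the cytosolic enzyme that unites several of these activities (chr12:76255298-76319803, plus strand), was at 67.2 and 73.8 CPM with DMSO and at 55.6 and 62.1 CPM with the inhibitor. The inhibitor libraries were the lower ones, but the gap between the groups was smaller than the spread within each. The log2 fold change was −0.26 (SE 0.0799, edgeR test with Benjamini-Hochberg adjusted p = 0.0149). The call was lost without DMSO replicate 3 (−0.20, adjusted p = 0.159 from edgeR with Benjamini-Hochberg adjustment), with upper-quartile scaling (−0.18, adjusted p = 0.0646) and with library totals (−0.14, adjusted p = 0.148), within a range of 7.25e-07 to 0.159 over all alternatives. In replicate 1 it went from 24.8 FPKM (DMSO) to 19.7 FPKM (inhibitor). *Mthfd1* shares 37 exonic bases with *Gm47525* on the opposite strand. Counts of *Mthfd2* over *Mthfd1* were 3.84 and 3.71 with DMSO and 1.64 and 1.73 with the inhibitor. This ratio was lower in both inhibitor libraries, by a log2 difference of −1.17, and in FPKM it was 6.21 with DMSO and 2.59 with the inhibitor, a log2 difference of −1.26.

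*Mthfd2l*, a mitochondrial relative of *Mthfd2* with the same activities (chr5:90931117-91021368, plus strand), moved the other way at a far lower level. It had 40 and 51 counts with DMSO and 165 and 137 counts with the inhibitor, or 1.55 and 1.88 CPM against 4.65 and 4.04 CPM. Both inhibitor libraries were the high ones, and it rose with a log2 fold change of 1.34 (SE 0.218, edgeR test with Benjamini-Hochberg adjusted p = 0.000339). Replicate 1 had the same direction, at 0.982 FPKM (DMSO) and 1.40 FPKM (inhibitor). Counts of *Mthfd2* over *Mthfd2l* were 167 and 146 with DMSO and 19.6 and 26.5 with the inhibitor, so *Mthfd2* had more counts in every library. 1 processed pseudogene resembles *Mthfd2l* over 291 bases, with 98.3% of them identical.

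*Mthfd1l* encodes the mitochondrial synthetase that releases formate (chr10:3973118-4167081, plus strand). It was at 295 and 280 CPM with DMSO and at 342 and 355 CPM with the inhibitor. Both inhibitor libraries were higher, and the log2 fold change was 0.28 (SE 0.0540, edgeR test with Benjamini-Hochberg adjusted p = 0.00112). It kept its direction and its call under every alternative that was run, between 0.23 and 0.40. The replicate 1 pair went the opposite way, from 34.1 FPKM (DMSO) to 12.2 FPKM (inhibitor), a difference of −1.41 on the log2(FPKM + 1) scale. Counts of *Mthfd1l* over *Mthfd1* were 4.38 and 3.80 with DMSO and 6.15 and 5.72 with the inhibitor, a log2 difference of 0.54. In FPKM that ratio was 1.37 with DMSO and 0.619 with the inhibitor, a log2 difference of −1.15. Opposite directions in the batches were common among genes in general. Of 10193 genes called in the count table and listed in both, 6714 (65.9%) had the same direction in the replicate 1 pair and 3424 (33.6%) the opposite direction. These shares count direction only, whatever the size. In that pair 1.94% of 11071 genes with a mean of at least 1 FPKM had a difference below −1, as *Mthfd1l* did.

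*Aldh1l2* encodes the mitochondrial dehydrogenase that oxidises the formyl unit to carbon dioxide while making NADPH (chr10:83487450-83534140, minus strand). It was at 50.6 and 51.9 CPM in the DMSO libraries and at 8.90 and 8.74 CPM in the inhibitor libraries. The groups were far apart and each pair of libraries nearly equal. The log2 fold change of −2.54 (SE 0.0913, edgeR test with Benjamini-Hochberg adjusted p = 1.87e-08) was the largest fall among the 10 genes. The transcript was also lower in replicate 1, at 6.53 FPKM (DMSO) and 1.03 FPKM (inhibitor). *Aldh1l2* shares 1056 exonic bases with *D10Wsu102e* on the opposite strand, which had 1785 and 1741 counts with DMSO and 3983 and 3803 counts with the inhibitor. Reads from the shared bases cannot be told apart without strand, and *D10Wsu102e* had more counts with the inhibitor where *Aldh1l2* had fewer. The cytosolic counterpart *Aldh1l1* was at 1.43 and 1.54 CPM with DMSO and at 3.13 and 3.87 CPM with the inhibitor, a rise with a log2 fold change of 1.23 (SE 0.234, edgeR test with Benjamini-Hochberg adjusted p = 0.000999).

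**Figure D2:**
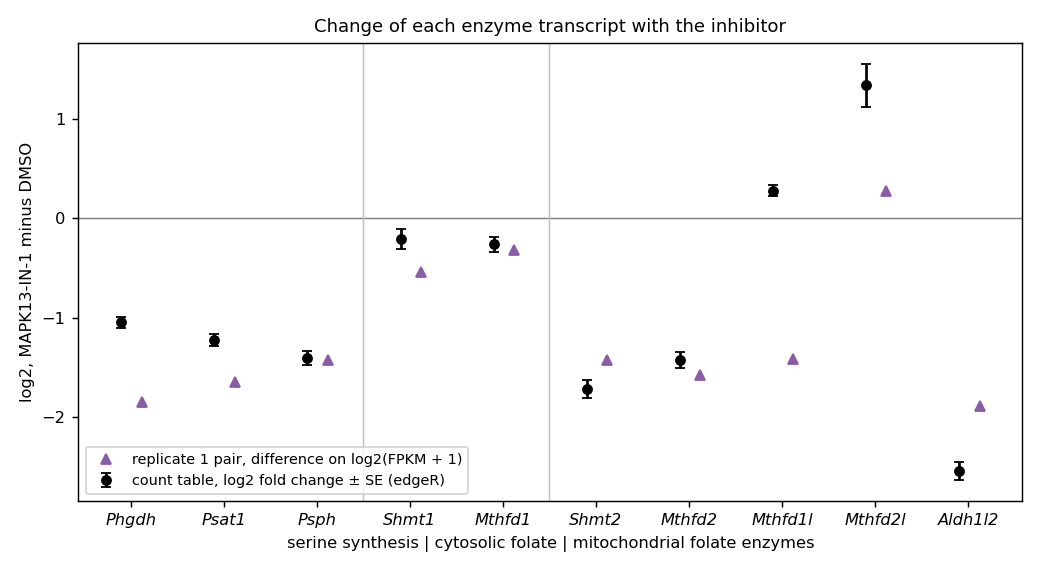
Log2 fold change of each enzyme transcript in the count table (circles, with the standard error from edgeR, 2 libraries per group) and log2(FPKM + 1) difference of the replicate 1 pair (triangles, 1 library per group), both as inhibitor minus DMSO. The cytosolic genes *Shmt1* and *Mthfd1* lie at −0.21 and −0.26 in the count table, the mitochondrial genes between −2.54 and 1.34, and *Mthfd1l* has opposite signs in the batches.

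Among all genes 32.3% fell and 31.5% rose, shares that apply beside each count in this paragraph. By compartment, 3 of 3 serine synthesis genes fell, with a median log2 fold change of −1.23. Of the 2 cytosolic folate genes 1 fell, and their median was −0.24. Among the 5 mitochondrial genes 3 fell and 2 rose, and their median was −1.43. In the replicate 1 pair the medians on the log2(FPKM + 1) scale were −1.65 for serine synthesis, −0.43 for the cytosolic genes and −1.42 for the mitochondrial genes. A set of 12 other mitochondrial genes, enzymes of the citric acid cycle, chaperones and membrane proteins among them, had 8 genes lower and 3 higher. Their median was −0.27 on the log2 scale, and −0.15 with library totals. Of the 12 genes, the chaperone gene *Hspa9* (−0.89, SE 0.0488) and the malate dehydrogenase gene *Mdh2* (−0.80, SE 0.0637) fell most. The citric acid cycle genes *Ogdh* (−0.39, SE 0.0689) and *Sdha* (−0.38, SE 0.0541) followed. The outer membrane channel gene *Vdac1* (0.36, SE 0.0561), the glutamate dehydrogenase gene *Glud1* (0.24, SE 0.0563) and the import receptor gene *Tomm20* (0.18, SE 0.0614) rose. The call of *Glud1* was lost without DMSO replicate 2 (0.22), and that of *Tomm20* without DMSO replicate 2 (0.15) or 3 (0.20). *Tomm20* was at 0.11 without inhibitor replicate 2, where it passed. In replicate 1, *Vdac1* (86.9 to 70.1 FPKM) and *Tomm20* (32.7 to 31.7 FPKM) were lower with the inhibitor, and *Glud1* (73.4 to 116 FPKM) was higher. There *Mdh2* (164 to 157 FPKM) and *Ogdh* (23.1 to 22.9 FPKM) were nearly level. The median of the 12 genes there was −0.21. None of these differences between lists was tested.

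Levels of different genes were compared as CPM per kilobase of GENCODE exons, a scale that assumes the authors' gene models to be alike. On this scale the mean DMSO levels ran from *Phgdh* (163) through *Shmt2* (135), *Psat1* (114), *Mthfd2* (76.4), *Mthfd1l* (64.8), *Psph* (23.6), *Mthfd1* (15.9), *Shmt1* (8.76) and *Aldh1l2* (6.83) to *Mthfd2l* (0.258). The libraries of neighbours in this order did not overlap. With the inhibitor the mean levels per kilobase of *Phgdh* (79.2) and *Mthfd1l* (78.6) led, and their libraries overlapped. *Psat1* (48.5), *Shmt2* (41.1), *Mthfd2* (28.4), *Mthfd1* (13.3), *Psph* (8.92), *Shmt1* (7.58), *Aldh1l2* (1.18) and *Mthfd2l* (0.654) followed on the same scale. In FPKM the order differed. The replicate 1 DMSO library ran from *Phgdh* through *Psat1*, *Shmt2*, *Mthfd2*, *Psph*, *Mthfd1l*, *Mthfd1*, *Shmt1* and *Aldh1l2* to *Mthfd2l*, and the inhibitor library from *Psat1* through *Shmt2*, *Phgdh*, *Mthfd2*, *Psph*, *Mthfd1*, *Shmt1*, *Mthfd1l* and *Mthfd2l* to *Aldh1l2*.

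Genes around the core pathway fell in part and rose in part, as genes in general did. Over the 39 of 44 listed genes that were tested, 19 fell (48.7%, against 32.3% of all genes) and 9 rose (23.1%, against 31.5% of all genes), with a median log2 fold change of −0.20, and the 5 others were too low for the test. The same shares of all genes apply to the calls in each list below. Among 11 genes tested of serine and glycine handling, 5 fell and 2 rose (median −0.18). *Gcat*, which links glycine and threonine breakdown (−1.39, SE 0.162), the sideroflexin genes *Sfxn3* (−1.32, SE 0.133) and *Sfxn1* (−0.40, SE 0.0779), the latter a mitochondrial serine carrier, and *Dld*, a shared subunit of the glycine cleavage system (−0.43, SE 0.0848), were the largest falls. In replicate 1, *Sfxn3* (12.62 to 11.98 FPKM) and *Gcat* (3.95 to 3.35 FPKM) were only slightly lower with the inhibitor. The serine dehydratase gene *Sds* rose by a log2 fold change of 1.97 (SE 0.219) from 29 and 34 counts with DMSO to 168 and 157 with the inhibitor. *Amt*, of the glycine cleavage system, rose as well (1.12, SE 0.114), but was level in the replicate 1 pair, at 1.40 and 1.38 FPKM. Median differences in that pair were −0.05 over the 44 genes and −0.01 for serine and glycine handling, on the log2(FPKM + 1) scale.

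Of 6 genes tested for folate transport and retention, 3 fell and 2 rose, with a median of 0.00. *Fpgs*, which adds the glutamate tail that keeps folate in the cell, was at 24.3 and 23.8 CPM with DMSO and at 10.0 and 9.77 CPM with the inhibitor. Its groups were clearly apart, with a log2 fold change of −1.28 (SE 0.103, edgeR test with Benjamini-Hochberg adjusted p = 2.58e-06), although the replicate 1 pair was at 10.8 and 10.2 FPKM. The folate carrier genes *Slc46a1* (−1.14, SE 0.305) and *Slc19a1* (−0.32, SE 0.107) fell. The former call was lost with DESeq2 (−1.13), and the latter without DMSO replicate 3 (−0.24) and with upper-quartile (−0.24) or total (−0.20) scaling. The log2 fold change of *Slc19a1* was also −0.20 without inhibitor replicate 2. *Slc25a32*, the mitochondrial folate carrier gene, rose (0.37, SE 0.115), a call lost without DMSO replicate 3 (0.27). *Ggh*, which trims the glutamate tail, rose by 0.33 (SE 0.131), and this was lost without DMSO replicate 2 (0.30), DMSO replicate 3 (0.34) or inhibitor replicate 2 (0.24), with DESeq2 (0.34) and without the filter on low counts (0.33). *Ggh* was lower in the replicate 1 inhibitor library (10.4 FPKM) than in the DMSO library (13.9 FPKM). The list's median there was −0.03.

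For folate interconversion and use, 2 of 6 genes tested fell and 1 rose, with a median of −0.13 (0.33 in the replicate 1 pair). *Tyms*, which makes thymidylate with folate, fell from 53.9 and 56.6 CPM with DMSO to 22.2 and 34.8 CPM with the inhibitor. The inhibitor libraries differed from each other but were both below DMSO, and the log2 fold change was −0.96 (SE 0.160, edgeR test with Benjamini-Hochberg adjusted p = 0.000406). *Aldh1l1* was the gene that rose.

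All 6 purine synthesis genes, whose pathway takes up formyl units, passed the test (63.8% of all genes did), 4 lower and 2 higher, with a median of −0.37 (−0.32 in the replicate 1 pair). *Gart*, which uses formyl folate, was at 124 and 132 CPM with DMSO and at 53.6 and 68.6 CPM with the inhibitor. The groups were apart, with a log2 fold change of −1.07 (SE 0.100, edgeR test with Benjamini-Hochberg adjusted p = 7.2e-06). *Pfas* (−0.78, SE 0.0803), *Adsl* (−0.55, SE 0.0733) and *Ppat* (−0.19, SE 0.0768), which encode other enzymes of the pathway, fell. The call of *Ppat* was lost without DMSO replicate 2 (−0.19) or 3 (−0.22) and under all the other alternatives but those that left out an inhibitor library. Among those, its value was −0.11 with upper-quartile scaling and −0.07 with library totals, where the call was lost. *Paics* (0.55, SE 0.0604) and *Atic* (0.16, SE 0.0622), the latter the second enzyme that uses formyl folate, rose. *Atic* lost its call without DMSO replicate 2 (0.11) or 3 (0.19), with DESeq2 (0.18) and without the filter (0.16). In the replicate 1 pair *Paics* (75.0 to 56.2 FPKM) and *Atic* (47.7 to 39.2 FPKM) were lower with the inhibitor.

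Of 10 genes tested in the methionine cycle list, 5 fell and 2 rose, with a median of −0.40 (−0.14 in the replicate 1 pair). The list includes *Cth*, which leads out of the cycle towards cysteine, and relatives of *Ahcy*. *Cth*, which releases cysteine from cystathionine, was at 117 and 126 CPM with DMSO and at 11.9 and 19.1 CPM with the inhibitor. Both inhibitor libraries were far below DMSO, with a log2 fold change of −2.98 (SE 0.161, edgeR test with Benjamini-Hochberg adjusted p = 1.97e-07), and the replicate 1 pair was at 43.0 and 12.7 FPKM. *Mat2a*, which makes S-adenosylmethionine (−0.81, SE 0.0705), *Ahcy*, which clears its product (−0.61, SE 0.0699), and the *Ahcy*-related gene *Ahcyl1* (−0.43, SE 0.0622) also fell. *Gnmt*, a glycine methyltransferase gene, rose from 9 and 16 counts with DMSO to 46 and 50 with the inhibitor (1.55, SE 0.377). *Ahcyl2*, another relative of *Ahcy*, rose by 0.27 (SE 0.0613), a call lost without DMSO replicate 3 (0.24).

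Regulators and targets of the amino acid response, in which the transcription factor ATF4 raises genes for amino acid synthesis, fell together with *Myc*. All 8 listed genes fell, with a median log2 fold change of −1.93. *Atf4* was at 543 and 549 CPM with DMSO and at 286 and 264 CPM with the inhibitor. The groups were well apart, with a log2 fold change of −0.99 (SE 0.0555, edgeR test with Benjamini-Hochberg adjusted p = 2.5e-07), and the replicate 1 pair was at 249 and 118 FPKM. The related factor genes *Atf5* (−2.72, SE 0.0677) and *Ddit3* (−1.81, SE 0.0714) fell by more. So did *Asns*, the asparagine synthetase gene (−2.05, SE 0.0883), *Trib3*, a pseudokinase gene (−2.61, SE 0.0678), and *Chac1*, a glutathione-degrading enzyme gene (−2.88, SE 0.139). *Sesn2*, a nutrient sensor gene (−0.48, SE 0.0628), and *Myc*, a growth regulator gene (−1.002, SE 0.0723), fell in the count table. In the replicate 1 pair they were higher with the inhibitor, *Sesn2* at 54.3 and 59.0 FPKM and *Myc* at 55.0 and 73.7 FPKM. The list's median in that pair was −1.51.

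**Figure D3:**
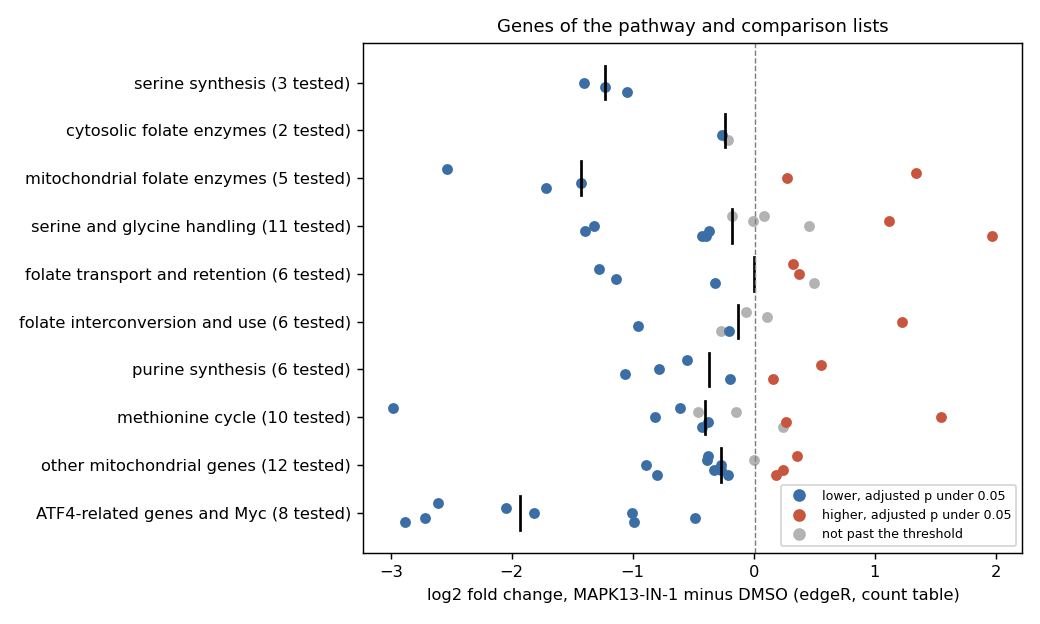
Log2 fold change (inhibitor minus DMSO, edgeR, 2 libraries per group) of every gene tested in each list, 1 point per gene, coloured by whether it passed an adjusted p of 0.05, with the list's median as a black bar. The medians of serine synthesis (−1.23), the mitochondrial folate enzymes (−1.43) and the ATF4-related genes with *Myc* (−1.93) lie lowest.

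The gene of the inhibited kinase, *Mapk13*, was counted at a low level. It had 79 and 74 counts with DMSO and 21 and 51 with the inhibitor, or 3.06 and 2.72 CPM against 0.592 and 1.51 CPM. The inhibitor libraries were both lower but differed from each other, and the log2 fold change was −1.47 (SE 0.363, edgeR test with Benjamini-Hochberg adjusted p = 0.0049). Its size rested on the inhibitor library used, at −0.94 without inhibitor replicate 2 and −2.29 without inhibitor replicate 3. Replicate 1 went the other way for *Mapk13*, from 0.191 FPKM (DMSO) to 3.28 FPKM (inhibitor). Of the other p38 kinase genes, *Mapk11* fell (−1.30, SE 0.115), *Mapk14* rose (0.43, SE 0.0614) and *Mapk12* did not pass (0.11, SE 0.256). *Mapk14* was lower in the replicate 1 inhibitor library (19.7 FPKM) than in the DMSO library (24.8 FPKM).

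Over the 6 libraries, the genes most like *Shmt2* by Euclidean distance of centred log2 values, among 10378 genes, were *Gpt2* (0.200), *Aars* (0.231) and *Xpot* (0.251), which encode a mitochondrial alanine aminotransferase, an alanyl-tRNA synthetase and a tRNA export factor. Their log2 fold changes were −1.79, −1.86 and −1.90. Those most like *Shmt1* were *Cip2a* (0.0397), *Dgcr8* (0.0828) and *Smc4* (0.0861), which encode a phosphatase inhibitor, a microRNA processing factor and a condensin subunit. Their log2 fold changes were −0.19, −0.20 and −0.21. All were picked by values from the same libraries, so fold changes near those of *Shmt2* and *Shmt1* follow from the choice. The value of *Cip2a* did not pass in the count table, as was the case for *Shmt1*. *Cip2a* passed without inhibitor replicate 3 (−0.33) and was at −0.07 without inhibitor replicate 2. The call of *Dgcr8* was lost without DMSO replicate 2 (−0.20), DMSO replicate 3 (−0.22) or inhibitor replicate 2 (−0.11), and that of *Smc4* without the same libraries (−0.21, −0.24 and −0.10). Both calls were also lost with upper-quartile scaling (−0.12 and −0.13), library totals (−0.07 and −0.09) and at least 10 counts in every library (−0.15 and −0.17), and that of *Dgcr8* with RLE scaling and DESeq2 (−0.18 in each).

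Promoter letters were searched for short motifs. RefSeq starts on GRCm38.p6 were matched for 9 of the 10 genes, with 10 windows of 250 bases before a start, and *Aldh1l2* was not matched. The core of the composite element bound by ATF4 (TGATGNAA, either strand) was in 0 of the 10 windows, against 3.45% of 32851 windows of all genes. The E-box (CACGTG, the same on either strand) was in 0 of the 10 windows, against 6.02% of all. Both shares are low, so 0 matches in 10 windows do not set these genes apart from others. The CCAAT box (CCAAT, either strand), chosen after the sequences were seen, was in 6 of the 10, against 33.8% of all. It was found for *Phgdh*, *Psph*, *Mthfd2*, *Shmt1* and *Mthfd1* and for 1 of the 2 starts of *Psat1*. A match is not a known binding site, and a missing match refers only to these letters in these windows. Shown are *Psat1*, which fell and holds CCAAT (in capitals) 36 and 6 bases before its start, *Shmt2*, which fell and holds none of the motifs, and *Mthfd1l*, which moved in opposite directions in the batches and holds none. Each is given 5′ to 3′ on the gene's strand and covers 0 annotated exonic bases. The windows are chr19:15925060-15925309 (minus strand, in an intron of the longer *Psat1* gene model), chr10:127522445-127522694 (minus strand, directly upstream of *Shmt2*) and chr10:3972825-3973074 (plus strand, upstream of *Mthfd1l*).
Psat1: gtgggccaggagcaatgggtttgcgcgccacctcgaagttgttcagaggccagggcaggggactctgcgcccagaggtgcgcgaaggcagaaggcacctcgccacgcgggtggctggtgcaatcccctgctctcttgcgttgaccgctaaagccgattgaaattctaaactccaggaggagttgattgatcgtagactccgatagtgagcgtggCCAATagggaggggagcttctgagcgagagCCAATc
Shmt2: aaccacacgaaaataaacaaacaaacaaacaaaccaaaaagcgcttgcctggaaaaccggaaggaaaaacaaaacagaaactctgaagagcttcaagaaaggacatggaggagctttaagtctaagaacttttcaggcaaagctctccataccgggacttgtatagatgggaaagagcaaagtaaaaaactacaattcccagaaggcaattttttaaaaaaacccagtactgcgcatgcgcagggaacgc
Mthfd1l: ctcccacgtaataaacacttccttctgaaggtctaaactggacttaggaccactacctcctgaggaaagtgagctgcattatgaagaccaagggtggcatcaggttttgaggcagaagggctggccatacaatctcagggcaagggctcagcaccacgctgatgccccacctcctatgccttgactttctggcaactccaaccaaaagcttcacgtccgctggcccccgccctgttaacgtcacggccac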

How the data were processed

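RNA-seq values of 6 libraries were used, 3 with DMSO and 3 with MAPK13-IN-1, grouped by the labels. For replicates 2 and 3 the authors deposited unnormalized counts per gene (35602 genes). The values deposited for replicate 1 (34714 genes) had been normalized by the authors and were taken as FPKM, since they are fractional, follow gene length and total 405150 and 390729. No unit is named for them. The submitters' processing notes name fastp 0.21.0, HISAT2 2.1.0, StringTie 2.1.5, DESeq2 1.30.1 and mm10 for the count table, and FastQC, HISAT2, GRCm38 and mm10 for the replicate 1 pair. The annotation, counting settings and use of strand are not given in the sources used here.

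Counts were fitted with edgeR 4.0.16 (R 4.3.3, limma 3.58.1) after filterByExpr (minimum count 10, minimum total 15) and TMM scaling, with factors of 0.960, 0.955, 1.05 and 1.04 for DMSO replicates 2 and 3 and inhibitor replicates 2 and 3. Groups were compared by the quasi-likelihood test, 2 libraries against 2 without covariates, and p-values were adjusted by Benjamini-Hochberg over all 16269 genes. The procedure was tested on simulated counts with few changed genes and the same spread in both groups. Neither holds for these data. Libraries within a group varied beyond sampling noise (mean chi-square per gene of 3.08 with DMSO and 9.60 with the inhibitor) and were kept as separate libraries. Replicate 1 was described by FPKM and by log2(FPKM + 1), which understates changes of low values. Isozyme ratios on the log2 scale used a prior count of 2. Exonic lengths and overlaps came from GENCODE M21, near copies from alignment of its transcripts and promoters from RefSeq. Figures were drawn with matplotlib 3.10.9.

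Genes named were the 10 enzymes, up to 4 with the largest absolute log2 fold change per direction and list among those with an adjusted p under 0.05, fixed regulators and p38 genes, and the 3 genes most like *Shmt2* and *Shmt1* each. A gene that meets this rule is not reported here. Lists covered serine and glycine handling, folate transport and retention, folate interconversion and use, and purine synthesis. Others covered the methionine cycle and genes linked to it, other mitochondrial genes, and cell type markers. The enzymes and lists were chosen with earlier results of these data known. Alternatives were RLE, upper-quartile and total scaling, no filter, at least 10 counts in every library, DESeq2 1.42.0, the replicate number as a block, an adjusted p of 0.01, each library left out, a pseudocount of 0.1, a minimum of 1 FPKM and a prior count of 0.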

Additional observations from a re-analysis of the deposited data

Results flagged for a closer look

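*Mthfd1l* is given here because its direction differed between the library batches, as it did for 33.6% of the 10193 genes called in the count table and listed in both. That share counts direction only, whatever the size. Both inhibitor libraries of the count table were above both DMSO libraries, with a log2 fold change of 0.28. In the replicate 1 pair the inhibitor library was lower, with a log2(FPKM + 1) difference of −1.41. Differences below −1 in that pair were found for 1.94% of 11071 genes with a mean of at least 1 FPKM. The difference between the batches was not tested, since replicate 1 has 1 library per group and another unit, and library kit and values cannot be told apart there.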

How the results depend on the processing

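Between 6 and 8 of the 10 enzyme genes were lower and 2 were higher under every alternative that left out no library. Over the same settings 4247 to 5384 of all genes were lower and 3916 to 6176 higher, against 5252 and 5122 in the main fit. The number of genes tested differed with the filter. The median log2 fold change of the 10 enzyme genes, −1.14, was −1.05 with upper-quartile scaling and −1.01 with library totals. It was −1.09 with at least 10 counts in every library, and −1.18 to −1.09 with 1 library left out. The causes were not tested. The median of the 12 other mitochondrial genes was −0.15 with library totals, against −0.27. The median difference of the replicate 1 pair was −1.47 with a pseudocount of 0.1. *Mapk12*, not called in any setting, changed sign without DMSO replicate 3 (−0.17) and without inhibitor replicate 2 (−0.03), within −0.17 to 0.40 over the libraries left out. Among 731 values of the 61 genes that met the naming rule under alternatives, 666 kept direction and call, 60 lost the call, 3 gained it and these 2 changed sign. With the replicate number as a block, 8 enzyme genes were lower and 2 higher, with a median of −1.14, and 5384 genes in all were lower and 5261 higher. Deviations of libraries that share a number had a correlation of −0.0064, so the numbers were not taken as a pairing. A library left alone in its group was assumed to vary like the other group, although the inhibitor libraries differed more from each other (mean chi-square per gene of 9.60) than the DMSO libraries (3.08). Depth limits *Mthfd2l*, with 40 to 165 counts in a library, more than the other enzymes. With 2 libraries per group, and a replicate 1 pair of unknown depth and inferred unit, calls rest on a few libraries of 1 batch.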
